A study of Arabidopsis thaliana with 6 samples.

Results

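The basic helix-loop-helix (bHLH) genes IND (AT4G00120), ALC (AT5G67110), SPT (AT4G36930), HEC1 (AT5G67060), HEC2 (AT3G50330) and HEC3 (AT5G09750) were examined as possible sites of binding by FRUITFULL (FUL), which belongs to the MADS-domain family of plant transcription factors, in Arabidopsis thaliana. They are 6 of 27444 protein-coding genes on the 5 chromosomes. They were chosen by locus, and each was assigned every FUL peak of 2 deposited lists whose summit, the base of highest signal, lay in the gene or within 3 kb of either end. This gave 4 of the 3494 peaks of the pistil list and 5 of the 3650 peaks of the inflorescence meristem (IM) list.

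ChIP-seq used anti-GFP beads against a FUL-GFP fusion driven by the FUL promoter (pFUL:FUL-GFP), a transgene that all plants carried in a Ler/Col F2 background. Pistils were at stages 12 to 16, from ful-1 mutant plants (2 ChIP samples and 1 input), whose age is not given in the sources used here. IM tissue came from plants aged 4 to 5 weeks with 35S:AP1-GR, ap1-1 and cal-1, in which AP1-GR had not been induced (2 ChIP samples and 1 input). The mutations make the IM plants pile up meristems in place of flowers, so this tissue is a model of a meristem held at that stage. Tissue and mutant background differ together and cannot be told apart. Whole pistils and whole meristem tissue were used, so fewer cells with FUL bound and less binding per cell cannot be told apart either. Each list was called on both replicates together, so every value below is a single value per tissue, without replicate error and without a test. Read depth is unknown from the lists. Fold enrichment, as given by the authors for the summit, was ranked only within its own list, where the median was 4.10 in pistil and 3.77 in IM. The lists ended at different strengths, with a lowest −log10 p of 34.4 in pistil and 22.4 in IM.

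Proteins of the bHLH family bind DNA as dimers, mostly at short sites called E-boxes, and different partners give different sites and functions. In the fruit, IND and ALC act at the valve margins, the strips of cells where the pod opens. IND is needed for the margin as a whole and ALC for its separation layer. FUL is known from genetics to keep these margin genes out of the valves: in ful mutants, valve cells take on features of the margin. SPT, a close relative of ALC, is needed for the fusion of the carpels and for the style and transmitting tract. The HEC genes, relatives of IND, act in overlapping ways in the stigma and transmitting tract, and they also affect the size of the shoot meristem. HEC proteins form dimers with SPT.

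Summits lay within 3 kb of 3 of the 6 genes in the pistil list (IND, HEC1 and HEC2) and of 3 in the IM list (ALC, HEC1 and HEC2). Among all protein-coding genes, 21.3% met the same rule in pistil and 23.7% in IM. HEC1 and HEC2 thus had summits in both lists, as did 15.3% of all genes. IND had a summit in pistil and none in IM, a pattern of 6.01% of all genes, and ALC a summit in IM and none in pistil, a pattern of 8.36%. SPT and HEC3 had none in either list, like 70.3% of all genes. Within 1 kb, HEC1 had a summit in pistil (11.9% of all genes) and ALC and HEC1 in IM (13.9%). With 6 genes these counts describe the group and carry no test. None of the 9 summits lay inside the bHLH gene that it was assigned to. Distances ran from 407 to 1729 bp in pistil and from 169 to 1679 bp in IM, and the next summits outside the window were those near HEC2 at 3498 bp in pistil and 3464 bp in IM.

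**Figure D1:**
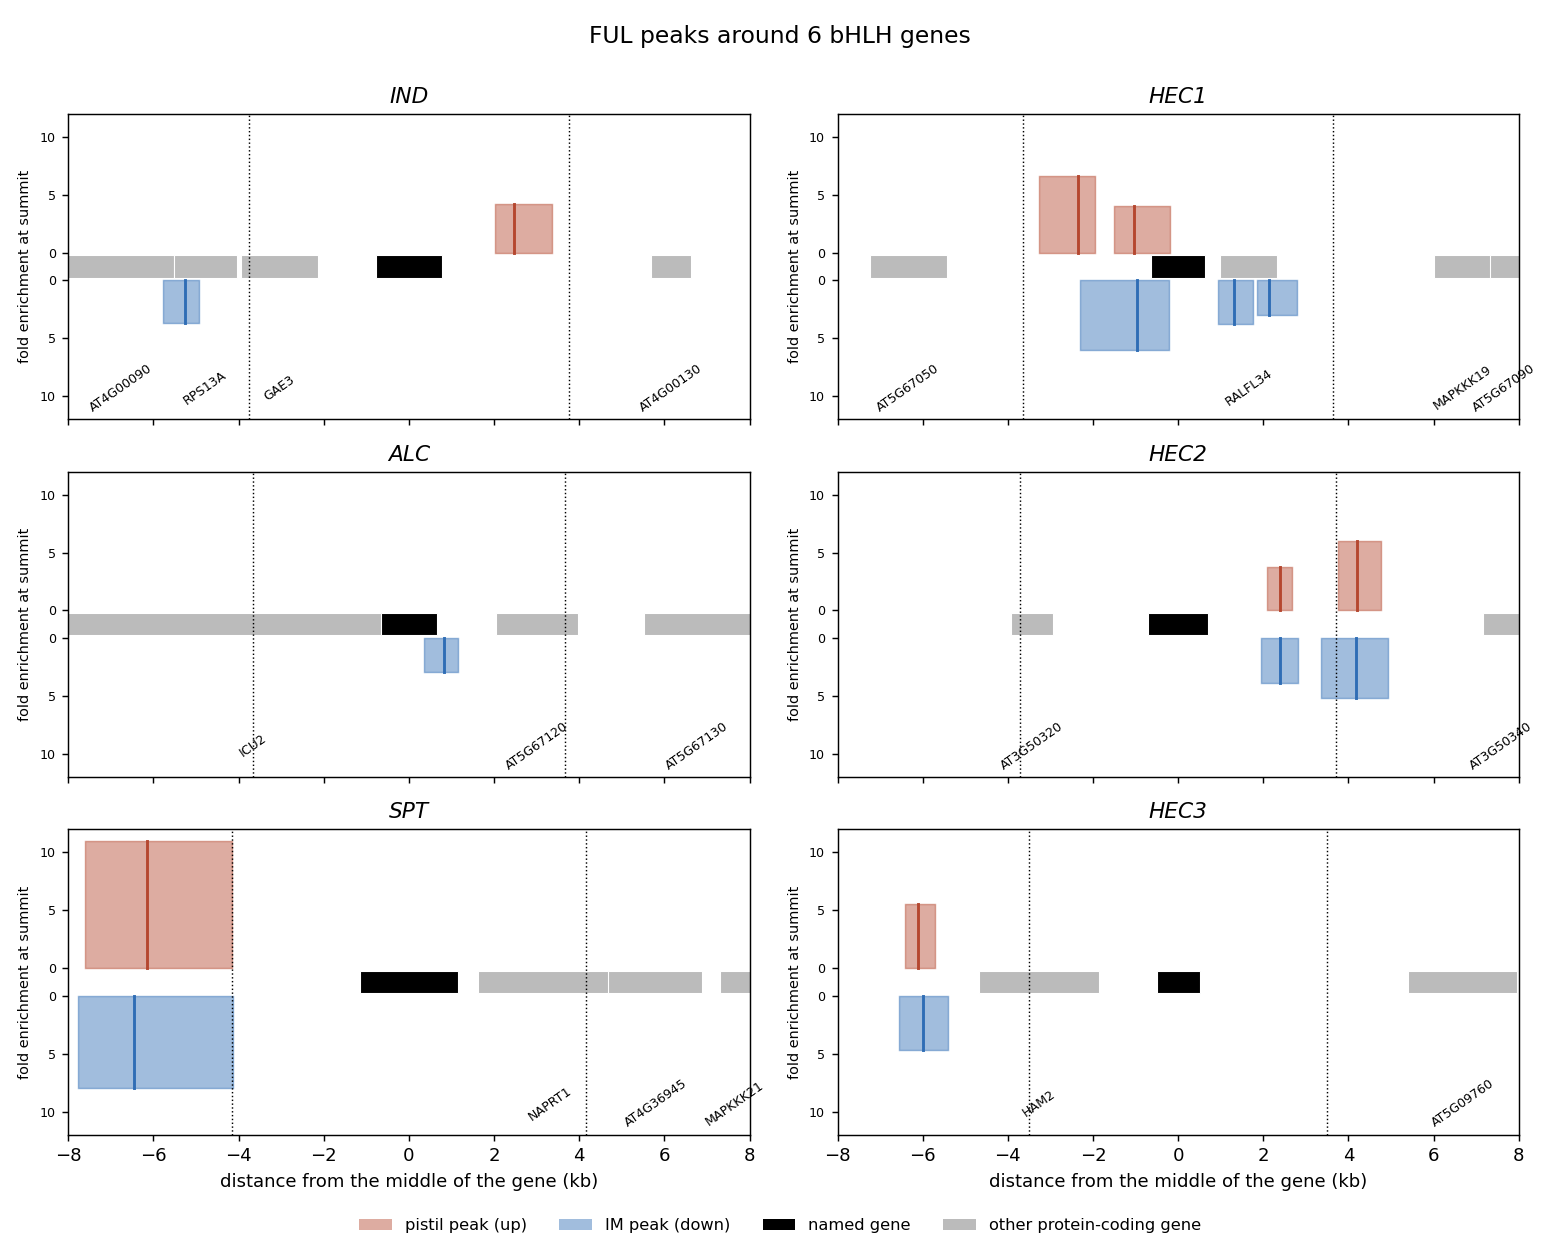
Peaks around the 6 genes, with distance from the middle of each gene in kb on the horizontal axis and fold enrichment at the summit on the vertical axis; pistil peaks point up and IM peaks down, the line in each box is the summit, and dotted lines stand 3 kb from the ends of the gene. Peaks of both lists lie between the dotted lines at HEC1 and HEC2, a pistil peak at IND, an IM peak at ALC, and at SPT and HEC3 every summit is outside them.

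At the valve margin gene IND, the pistil list held a peak of 1351 bp on chromosome 4 (44446 to 45796, TAIR10) with its summit 1698 bp from the gene. Its fold was 4.23 and its −log10 p 72.8, both near the middle of the pistil list, where 52.95% of peaks had an equal or lower fold. No protein-coding gene was nearer to this summit than IND. The next gene on that side, AT4G00130, lies 4916 bp from IND. The IM list had no peak overlapping it. The closest IM summit to IND was 4495 bp away on the other side, inside RPS13A, a ribosomal protein gene, with a fold of 3.70. IND therefore had a listed site of medium strength in pistils, and its absence from the IM list is a difference between lists that could not be tested.

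ALC showed the reverse pattern, with a weaker peak. The IM list held a peak of 805 bp on chromosome 5 (26786128 to 26786932), with its summit 169 bp beyond the end of the gene. Its fold was 2.96, and 9.07% of IM peaks had an equal or lower fold. Its −log10 p of 27.7 was below 34.4, the lowest value in the pistil list. Its fold was above the lowest of that list, 1.80, but only 4.18% of pistil peaks had a fold of 2.97 or lower. Folds were ranked only within their own list, so these values give no common limit. Whether the limits of the lists bear on its absence from pistil was not tested. ICU2, a DNA polymerase subunit gene, is annotated in RefSeq across the whole of ALC and ends at the same base, so the summit was equally near to both genes. No pistil summit lay within 12 kb of ALC.

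By summits within 3 kb, HEC1 had the highest folds and the most peaks of the group, although 2 of its IM peaks lie nearer to another gene. The pistil list held a peak with a summit 1729 bp away (chromosome 5, 26763367 to 26764683, fold 6.66, −log10 p 173). The other pistil peak had its summit 407 bp away on the same side (26765123 to 26766429, fold 4.06, −log10 p 89.3). The first stood above 83.5% of pistil peaks or level with them, and the second just under the median fold. HEC1 was the nearest gene to both.

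In the IM list a single peak of 2087 bp (26764316 to 26766402) spanned most of that stretch, with its summit 327 bp from HEC1, a fold of 6.02 and a −log10 p of 116. It ranked 342 of 3650 by fold and overlapped both pistil peaks. Its summit stood 80 bp from the nearer pistil summit and 1402 bp from the farther. The highest pistil fold was thus at the site farther from HEC1. The IM list had only 1 summit on this side, at the nearer site. The farther pistil summit, at base 26764263, lay outside the IM peak, so IM held no summit there to compare. The overlap with the farther pistil peak was 368 bp, or 27.9% of that peak.

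The other 2 IM summits assigned to HEC1 lay inside its neighbour RALFL34, a gene of the RALF family of signalling peptides, whose near end is 341 bp from HEC1. Their summits were 689 and 1500 bp from HEC1, with folds of 3.80 and 2.95. The weaker had a −log10 p of 22.5, close to the lowest of the IM list, 22.4, and neither overlapped a pistil peak. By position these peaks belong to RALFL34 first and to HEC1 only through the window.

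HEC2 had the same site in both lists. The pistil peak was 604 bp wide (chromosome 3, 18659742 to 18660345), with its summit 1673 bp from the gene, a fold of 3.71 and a −log10 p of 53.8. The IM peak was 863 bp wide (18659623 to 18660485), with its summit 1679 bp away, a fold of 3.86 and a −log10 p of 47.1. The summits were 6 bp apart, the IM peak covered all of the pistil peak, and HEC2 was the nearest gene in both lists. The fold was under the median in pistil, where 37.1% of peaks were equal or lower, and over it in IM, where 53.4% were.

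A stronger site lay farther out on the same side of HEC2. Its summits were 3498 bp from HEC2 in pistil (18661422 to 18662431, fold 6.04) and 3464 bp in IM (18661013 to 18662600, fold 5.19), 34 bp apart. They fell in the 6460 bp between HEC2 and AT3G50340, and AT3G50340 was the nearer gene, at 2963 bp in pistil and 2997 bp in IM. The nearest gene and the limit of 3 kb both leave this pair of peaks out of the HEC2 count.

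At HEC3 no summit came closer than 5602 bp in pistil and 5502 bp in IM. Those summits, with folds of 5.52 and 4.67, were 100 bp apart and lay beyond HAM2, a histone acetyltransferase gene between them and HEC3, at 1425 and 1325 bp from HAM2. The 4904 bp between HEC3 and its other neighbour AT5G09760 held no listed summit. HEC3 was therefore the member of the HEC group without a listed site, at the thresholds of these lists, which does not show that FUL does not bind there.

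SPT lies on chromosome 4 next to AP2, a floral homeotic gene, with the small gene AT4G36925 between them. On its other side AP2 has the peak of rank 2 by fold in the pistil list (15.1, summit 1611 bp from AP2). The pistil peak of rank 3 (15.0) lies farther out, 4778 bp from AP2 and nearest to LEJ2. A single IM peak of 4434 bp, of rank 63 (7.76), overlaps both, with its summit 36 bp from that of the rank 2 peak. The space from AP2 to SPT is 10613 bp, of which the last 9632 bp before SPT hold no protein-coding gene. Each list had 2 summits in that space. The outer site had its summit 9044 bp from SPT and 1570 bp from AP2 in pistil (17404506 to 17405536, fold 10.4), and 9160 and 1454 bp in IM (17404399 to 17405669, fold 6.57). AT4G36925 was nearest to it, at 589 bp in pistil and 473 bp in IM.

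The inner site of this interval was broad. It was 3465 bp wide in pistil (17407626 to 17411090), with a fold of 11.0 and rank 74 by fold, and 3643 bp wide in IM (17407458 to 17411100), with a fold of 8.00 and rank 40. At least 98.96% of peaks in each list were as wide or narrower. The pistil summit was 5008 bp from SPT, 4625 bp from AT4G36925 and 5606 bp from AP2. The IM summit was 5296 bp from SPT, 4337 bp from AT4G36925 and 5318 bp from AP2. By nearest gene the site belonged to AT4G36925, and of SPT and AP2 it was closer to SPT in both lists. The edge of the peak reached to 2993 bp from SPT in pistil and 2983 bp in IM. When any base of a peak within 3 kb was counted in place of the summit, a rule added after seeing the data, SPT joined the other genes in both lists and the counts became 4 of 6 in each, with 23.7% of all genes in pistil and 26.9% in IM. The assignment of this site to SPT thus rests on how the window is measured.

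**Figure D2:**
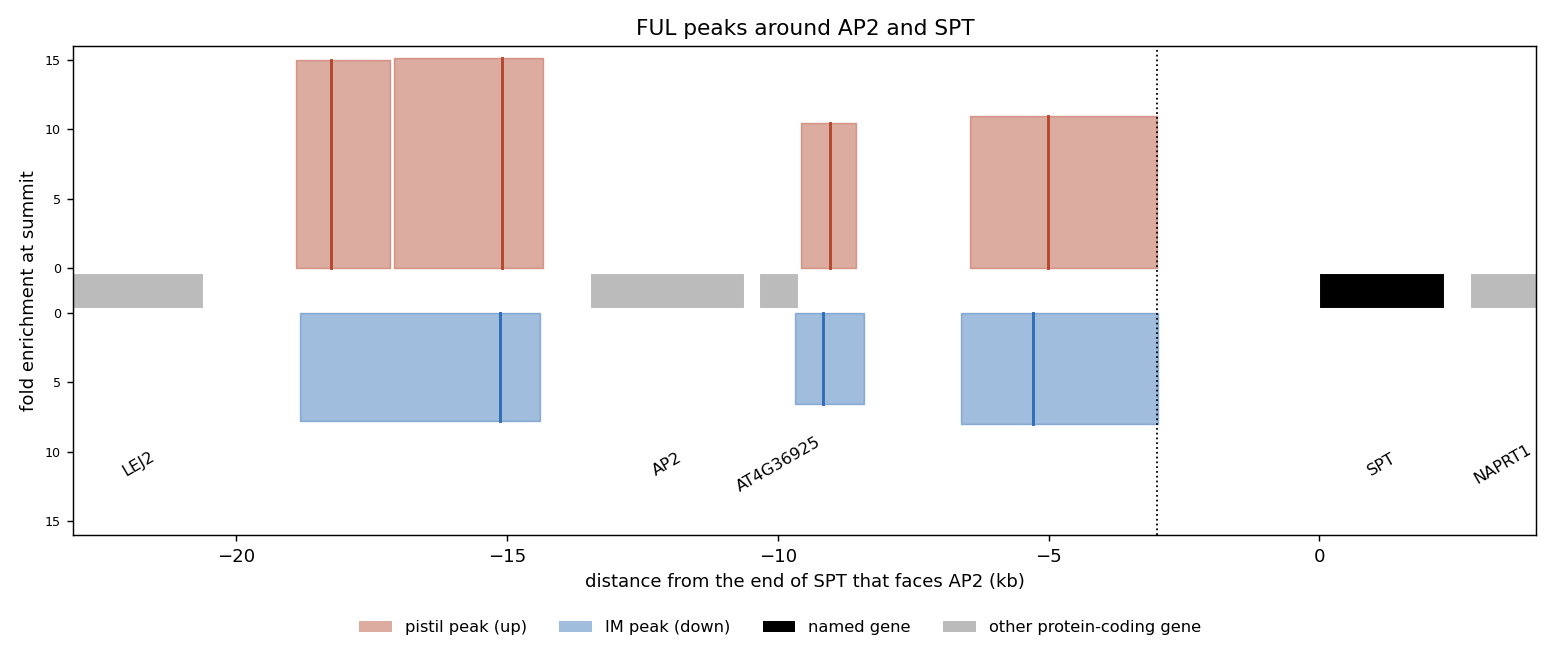
Peaks around AP2 and SPT, with distance in kb from the end of SPT that faces AP2 on the horizontal axis and fold enrichment at the summit on the vertical axis; pistil peaks point up, IM peaks down, and the dotted line stands 3 kb from SPT. The inner peaks of both lists end at the dotted line while their summits, 5008 bp (pistil) and 5296 bp (IM) from SPT, lie beyond it.

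All but ALC have a long space free of protein-coding genes on 1 side. The longer flank was 9632 bp at SPT, 6460 bp at HEC2, 4916 bp at IND, 4904 bp at HEC3, 4794 bp at HEC1 and 1377 bp at ALC, against a median of 1430 bp (quartiles 548 to 3181 bp) for the longer flank over all 27444 genes. The shorter flank was 2237 bp at HEC2, 1366 bp at IND, 1345 bp at HEC3, 468 bp at SPT and 341 bp at HEC1, and ALC has none on its side within ICU2, against a median of 200 bp. The part of flank length in the counts was not tested. All 4 pistil summits and 3 of the 5 IM summits lay in the longer flank of their gene, the other 2 being those inside RALFL34. The gene table used here holds no strand, so these sides are not named as upstream or downstream.

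Within each list the median fold of these peaks was near that of the list, while single IM peaks lay far from it. As the share of IM peaks with an equal or lower fold, the ALC peak stood at 9.07% and the RALFL34 peaks at 8.33% and 51.3%. The HEC2 peak stood at 53.4% and the HEC1 peak 327 bp from the gene at 90.7%. The 4 pistil folds ran from 3.71 to 6.66 with a median of 4.15, and 2 of them exceeded the list's median. The 5 IM folds ran from 2.95 to 6.02 with a median of 3.80, and 3 of them exceeded it. Of the 4 pistil peaks, 3 overlapped an IM peak by at least 1 bp, where 63.4% of all pistil peaks did so. Both HEC1 pistil peaks overlapped the same IM peak, and the peak farther from the gene did so over only 27.9% of its length. Of the 5 IM peaks, 2 overlapped a pistil peak, against 59.5% of all IM peaks. Of the IM peaks, 2 had a −log10 p under 34.4, the lowest in the pistil list: the ALC peak and the weaker peak in RALFL34.

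**Figure D3:**
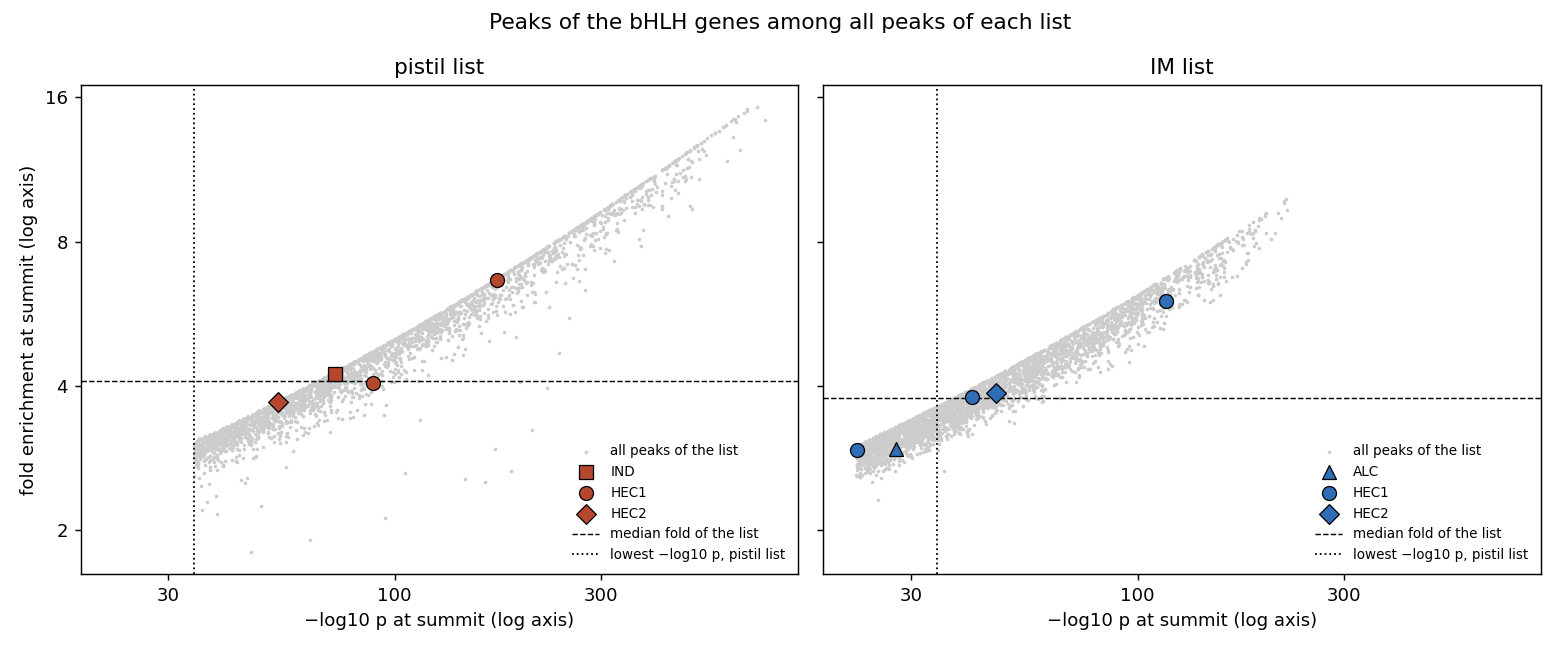
Fold enrichment against −log10 p at the summit, both on log axes, for all peaks of the pistil list (left, 3494 points) and the IM list (right, 3650 points), with the peaks of the bHLH genes marked. The dashed line is the median fold of the list and the dotted line the lowest −log10 p of the pistil list, 34.4; the ALC peak and an IM peak assigned to HEC1 lie left of it.

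The same rule was applied to genes known to act with or beside the 6 bHLH genes. Of 27 other regulators of the gynoecium and valve margin, 15 had a summit in pistil and 16 in IM, against 21.3% and 23.7% of all genes. Of the 27, 12 had one in both lists and 8 in neither, against 15.3% and 70.3% of all genes. The 4 with the highest rank in either list were SHP2 (fold 12.2 in pistil, 8.14 in IM), a MADS-box gene that turns on IND and ALC at the margin, ETT (9.54 and 8.91), an auxin response factor that patterns the gynoecium, AG (11.7 and 6.28), the carpel identity gene, and FUL itself (4.68 and 8.10). The FUL summits were at different sites, 2438 bp from the gene in pistil and 82 bp in IM. Reads at FUL can come from the gene or from the transgene, which carries its promoter, and cannot be told apart. Further genes are named here for their known link to the margin, after their values were seen. SHP1, the partner of SHP2, had folds of 6.11 and 4.72, RPL, which keeps margin genes out of the replum, 7.56 and 3.39, and JAG, which promotes valve identity, 9.54 and 4.48. FIL, which acts with JAG in the valves, had a summit in pistil (7.82) and none in IM, and YAB3, its partner there, had none in either list. Of the genes that act later in opening the pod, NST1 and NST3, which direct lignification, had none in either list. ADPG1, a polygalacturonase gene, had a summit in IM (3.96), to which another gene lay nearer, and none in pistil. ADPG2, a related gene, had its summit inside the gene in both lists, with folds of 10.2 in pistil and 6.18 in IM. The median of the highest fold per gene with a summit was 6.40 in pistil and 4.22 in IM for these regulators, 4.23 and 3.86 for the 6 bHLH genes, and 4.32 and 3.90 over all genes with a summit.

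Among other bHLH genes, the relatives of SPT and ALC often had summits, a count given without a test. Of 9 genes of the phytochrome-interacting group, to which these are related by sequence, 8 had a summit in pistil and 7 in IM, against 21.3% and 23.7% of all genes. By nearest gene these counts were 6 and 5, against 10.8% and 11.8% of all genes. This list was chosen with earlier results of these data known. The group was led by PIF4, a regulator of growth in light and warmth. Its folds were 9.37 in pistil and 6.53 in IM, with the summit inside the gene. PIF6 had folds of 5.13 and 6.11, PIL1 of 6.98 and 5.67 and PIF5 of 4.49 and 5.54. For PIL1 and HFR1, another gene lay nearer to each summit. The bHLH genes HAF, BEE1 and BEE3, which act together in the transmitting tract, had summits in 3 of 3 cases in pistil and 2 of 3 in IM, with BEE3 at 7.33 and 5.57, BEE1 at 5.87 and 3.71, and HAF at 5.03 in pistil with none in IM.

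**Figure D4:**
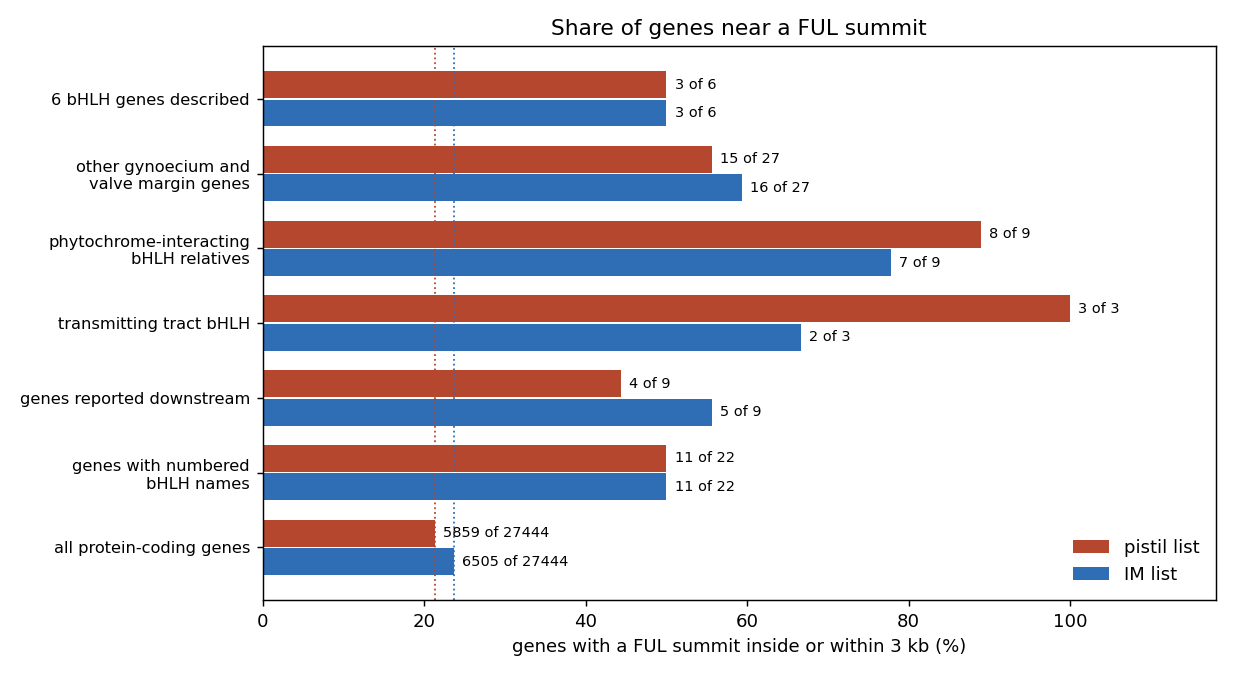
Percentage of genes with a summit inside or within 3 kb, for the 6 bHLH genes, 5 comparison lists and all protein-coding genes, in the pistil list (upper bar) and the IM list (lower bar); the count stands beside each bar and the dotted lines mark all protein-coding genes, 21.3% in pistil and 23.7% in IM. The 6 bHLH genes stand at 3 of 6 in both lists, above the dotted lines.

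The likeness of the genes' patterns was measured as the distance between 2 pairs of percentiles, each pair being the rank of a gene's highest fold within the pistil list and within the IM list, with 0 where no summit was in the window. It covers 2 tissues only and 70 genes of the comparison lists. HEC1 was closest to PIL1 (3.58 percentile points), BEE3 (5.56) and PIF4 (11.3). HEC2 was closest to UNE10, a bHLH gene of the phytochrome-interacting group (10.9), bHLH071 (23.8) and PIF7 (25.1). IND was closest to bHLH115 (5.09), which also had a summit in pistil and none in IM, then PRE1 (12.9) and HAF (14.3). The bHLH115 summit, 2841 bp away, lay nearer to another gene. PRE1, unlike IND, also had a summit in IM, inside the gene, with a fold of 3.005. ALC was closest to YUC4 (4.11), STY1 (4.22) and CUC1 (7.81), which had weak summits in IM with folds of 2.87, 3.03 and 2.73 and none in pistil.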

How the data were processed

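For each tissue the authors deposited a narrowPeak list of peaks. MACS2 2.1.0, Bowtie 1.1.2, deepTools, Picard 2.60 and the build TAIR10 are named, with no role, in the submitters' processing notes. The names of the peaks hold "pooled", from which calling on joined replicates is taken. The fold enrichment (a ratio), −log10 p and score (−log10 p times 10, without its decimals) of each peak are values deposited by the authors and were used as they stand. Caller settings, the use of the inputs and the rule for selecting peaks were not given in the sources used here. Peak numbers reach 14602 in pistil and 13754 in IM, above the numbers of listed peaks, so weak sites may be missing from either list.

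Genes came from a RefSeq table of assembly TAIR10.1, matched by locus (all 6 genes, and 54 of 54 loci given by hand). Because the deposited build is named TAIR10, no gene coordinates are printed. The register was checked: 26.0% of pistil and 29.5% of IM summits lay inside genes in place, against 56.3% or more and 60.2% or more when moved by 2 to 10 kb. Shared peaks overlap by at least 1 bp. Assignment, nearest gene and overlap were tested on simulated data (Python 3.11.15, pandas 2.3.3). The planned motif search was not run, since no sequence was used here. The genes and the 5 comparison lists were chosen with earlier results of these data known. A further gene considered for the downstream list is not reported here. The named genes of each list are the up to 4 with the highest percentile of fold in either list. For each bHLH gene with a summit, the 3 most alike genes are given. Alternatives were other windows, the nearest gene, folds above the median, 1 threshold on −log10 p, stricter overlap and, added after seeing the data, a window of 2 kb, ties left out and any base of the peak.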

Additional observations from a re-analysis of the deposited data

How the results depend on the processing

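With a window of 1 kb, 1 of the 6 genes (HEC1) had a summit in pistil in place of 3, and 2 in IM. Under the other alternatives the counts lay between 2 and 4, within 1.5 times of 3, while the share of all genes ran from 10.7% (nearest gene, ties left out) to 30% (5 kb) in pistil and from 11.6% to 33.1% in IM, with 16.1% in IM at 1 threshold. In IM the count was 2, without ALC, at 1 threshold on −log10 p, with folds above the median and with ties left out. At 5 kb IND joined in IM through the peak inside RPS13A. With an overlap of 50% or summits within 200 bp, 2 of the 4 pistil peaks were shared (63.2% and 55.1% of all pistil peaks). Of the remaining values, for single genes and comparison lists, 73 were equal, 36 lower, 12 higher and 3 had no value under the main rule. The numbered bHLH list, for example, fell to 5 genes in pistil and 6 in IM by nearest gene, and the gynoecium regulators to 9 in IM with folds above the median. Distance from gene starts was not run, since the table holds no strand. No paired analysis was possible because each list pools its replicates, which also left no replicate to leave out. Depth is unknown, so a gene without a listed peak may still be bound.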

Other observations

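Genes reported to act downstream of these bHLH factors were listed as well, although FUL binding near them says nothing of the bHLH proteins. Of 9 such genes, 4 had a summit within 3 kb in pistil and 5 in IM, against 21.3% and 23.7% of all genes. PID, a kinase that directs auxin transport, had a highest fold of 8.31 in pistil and 3.39 in IM, and the auxin carrier gene PIN3 one of 6.40 and 3.66. ARR7, a cytokinin response gene, had folds of 4.87 and 4.03, and the gibberellin synthesis gene GA3OX1 2.78 and 4.02. WAG2, ARR1, ARR15 and TAA1 had no summit in either list.

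Genes with a numbered bHLH name as symbol or synonym, a pattern that takes none of the 6 genes described here, had summits in 11 of 22 cases in each list. Among all genes, 21.3% had a summit within 3 kb in pistil and 23.7% in IM. AT1G72210 had folds of 12.2 in pistil and 4.65 in IM with the summit inside the gene, BHLH32 9.43 and 4.34, and bHLH093 5.55 and 4.80. For BHLH32 and bHLH093, another gene lay nearer to each summit. bHLH104 had a summit in IM (4.85) and none in pistil. By nearest gene, 5 of the 22 in pistil and 6 in IM had a summit, against 10.8% and 11.8% of all genes.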
